A study of Mus musculus with 13 samples.

Results

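The zona pellucida and sperm binding genes are 8 of the 18939 genes in the count tables of this single-oocyte RNA-seq series. They were chosen by symbol: Zp1, Zp2 and Zp3, Astl, Izumo1r, Cd9 and Cd81, and Oosp1. All 8 are listed in both count tables and in the FPKM table, and 7 of 8 had enough reads to be tested at every stage. Cd81 had 0 to 9 reads in each GV oocyte and was tested only where MII oocytes entered the comparison.

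The study asked how fully grown mouse oocytes with a non-surrounded nucleolus (NSN) differ from those with a surrounded nucleolus (SN), before and after meiotic maturation. In an SN oocyte condensed chromatin rings the nucleolus, and in an NSN oocyte it does not. Germinal vesicle (GV) oocytes came from C57BL/6 females of 3 to 4 weeks of age, 48 h after the gonadotropin PMSG. The oocytes of all groups received FBL-GFP mRNA, a green fluorescent fusion of the nucleolar protein fibrillarin, and spent 6 h in Cilostamide, a phosphodiesterase inhibitor that holds them at GV. They were then typed by the FBL-GFP pattern, and some were released and matured in culture to metaphase II (MII). The MII groups therefore hold only oocytes that had been typed at GV and had completed maturation in vitro. There were 3 SN GV, 3 NSN GV, 4 SN-MII and 3 NSN-MII libraries, each from 1 oocyte. The sources do not say which oocytes came from the same female, so the tests measure the spread between these oocytes only. The zona pellucida was stripped off before lysis, and the data concern transcripts inside the oocyte, not the coat itself.

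The zona pellucida is the glycoprotein coat that a growing oocyte secretes around itself. ZP1, ZP2 and ZP3 are its structural subunits in the mouse: ZP2 and ZP3 build the filaments, ZP1 cross-links them, and the amino-terminal part of ZP2 is where sperm bind. After fertilisation the protease ovastacin, encoded by Astl, is released from cortical granules and cleaves ZP2, which ends sperm binding. On the egg membrane JUNO, encoded by Izumo1r and held by a GPI anchor, receives the sperm protein IZUMO1, and the tetraspanin CD9 is needed for the membranes to fuse. CD81 is a related tetraspanin, which is also made by cumulus cells. Oosp1 encodes a secreted oocyte protein with a zona-like fold. NSN oocytes still transcribe, SN oocytes are largely silent, and maturation to MII proceeds mainly on stored mRNA, much of which is degraded or has its poly(A) tail changed on the way.

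Total counts per library were 7140416 to 7932432 at GV and 7419438 to 8846287 at MII. The oocyte identity of the libraries was checked with 10 oocyte genes, whose summed level was 15351 to 23263 FPKM, with none of the 10 at 0 throughout a group. The 14 cumulus and granulosa genes summed to 27.1 to 35.6 FPKM at GV and 35.0 to 60.4 FPKM at MII. Ptx3 and Foxl2 were at 0 in all 13 libraries. Of this list, 4 genes were tested between the stages and 1, Cyp19a1, was called, against 68.5% of all genes. Its mean levels were 20.04 to 22.3 FPKM in the GV groups and 36.1 to 42.3 FPKM in the MII groups. Nr5a2 was detected in every group, with means of 3.55 to 7.47 FPKM, and was not called. The part of other cells in the results was not tested. The third NSN-MII library stood apart: it had the fewest genes with a count of at least 1 (11579, against 11818 to 13333 in the others), the smallest count total of the MII libraries, and the largest share of counts in its top 10 genes (12.1%). Results that rest on it are given with and without it.

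Before maturation the coat genes were among the most abundant transcripts of the oocyte. FPKM, which is scaled by gene length, allows genes to be ordered within a group. Zp3 averaged 2904 ± 444 FPKM over the 6 GV oocytes (SD) and held rank 7 to 9 among the 18939 genes of the count tables. Oosp1 followed with 2008 ± 239 FPKM and rank 12 to 19. Zp2 averaged 1359 ± 240 FPKM and Zp1 averaged 674 ± 129.6 FPKM. Izumo1r (324 ± 69.5 FPKM) and Astl (322 ± 98.3 FPKM) were next, and their ranges overlapped within both oocyte types. Cd9 stood at 137 ± 55.7 FPKM, and Cd81 was near the detection limit at 0.72 ± 0.61 FPKM. Neighbours in this order did not overlap within SN GV oocytes apart from Izumo1r and Astl; within NSN GV oocytes Oosp1 and Zp2 overlapped as well. The 8 genes together took 0.997 to 1.41% of all counts at GV.

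At MII the order was different. Oosp1 led with 2853 ± 461 FPKM (SD, n = 7) and held rank 9 to 16 among the genes of the count tables. Astl averaged 301 ± 133 FPKM and Zp1 averaged 292 ± 258 FPKM. Zp3 stood at 189 ± 77.8 FPKM and Zp2 at 132 ± 65.7 FPKM, and within both MII groups neighbours among these 4 genes overlapped. Izumo1r stood at 41.2 ± 12.9 FPKM, Cd9 stood at 13.6 ± 6.35 FPKM and Cd81 at 2.60 ± 0.981 FPKM. The 8 genes together took 0.295 to 0.469% of counts, and the GV and MII ranges of this share did not overlap.

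**Figure D1:**
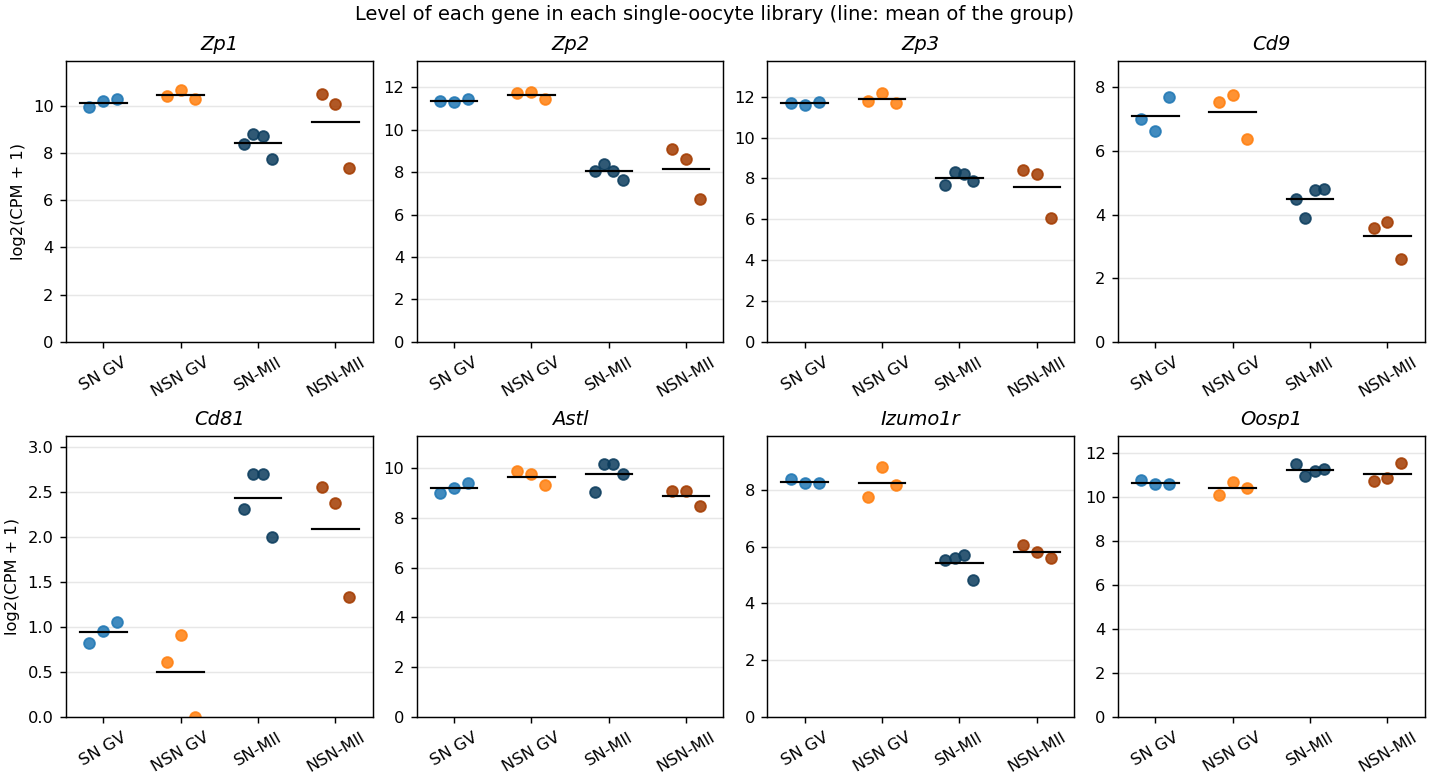
Each point is 1 oocyte, the horizontal axis gives the 4 groups and the vertical axis gives log2(CPM + 1), with a line at the mean of these values in each group. Zp2, Zp3, Cd9 and Izumo1r sit lower in all 7 MII oocytes than in all 6 GV oocytes, Cd81 sits higher, and the 3 NSN-MII points of Zp1 run from 1437 CPM down to 163 CPM.

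The transcripts examined for the coat genes share short sequences after the stop codon. In the GENCODE M21 annotation of GRCm38 the 3′ UTR of the transcript examined is 13 bases in Zp3, 34 in Zp1 and 49 in Zp2, against a median of 778 over 21659 protein-coding genes. Those of Oosp1 (230 bases), Izumo1r (333), Cd9 (395), Cd81 (560) and Astl (877) are longer. The last 30 bases matter here because the library method primes on the poly(A) tail that is added after them. They are shown for 3 genes that fell at MII and for Oosp1, which rose, with the polyadenylation signal AATAAA in capitals:
Zp1 (chr19:10914289-10914318, minus strand): actcAATAAAccattgtttgaaaactcctg
Zp3 (chr5:135988595-135988624, plus strand): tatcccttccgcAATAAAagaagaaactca
Izumo1r (chr9:14900023-14900052, minus strand): gtaccttcAATAAAaggctaggaaactcta
Oosp1 (chr19:11667460-11667489, minus strand): ctaatgatcataaatagttattttttcttg
AATAAA or ATTAAA was searched on the transcript strand in the last 40 bases and found in 7 of 8 members, against 69.7% of the 21659 genes. Oosp1 was the member without either. TTTTAT and TTTTAAT, forms of the cytoplasmic polyadenylation element, were searched on the same strand in the last 100 bases and found in 0 of 8 members and in 16.5% of genes. For Zp1, Zp2 and Zp3 that window runs into the coding sequence. The ends examined for Zp2 and Izumo1r lie well inside their gene spans, and ends annotated further out were not examined. A match or its absence is a description of these letters only.

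The promoters were examined because the basic helix-loop-helix factor FIGLA, which drives the zona genes in growing oocytes, binds E-boxes. RefSeq windows of 250 bases before the annotated start (GRCm38.p6) were found for 6 of 8 members, Zp3, Astl, Cd9, Cd81, Izumo1r and Oosp1. The windows printed are those of a gene that fell at MII, a gene that was not called and a gene that rose, with E-boxes, CANNTG, in capitals:
Zp3 (chr5:135979855-135980104, plus strand): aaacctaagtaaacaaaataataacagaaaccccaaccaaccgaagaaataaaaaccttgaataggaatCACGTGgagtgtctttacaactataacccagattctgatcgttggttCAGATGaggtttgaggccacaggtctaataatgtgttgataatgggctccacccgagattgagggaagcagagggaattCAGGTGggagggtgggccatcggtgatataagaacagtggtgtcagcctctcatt
Astl (chr2:127341386-127341635, plus strand): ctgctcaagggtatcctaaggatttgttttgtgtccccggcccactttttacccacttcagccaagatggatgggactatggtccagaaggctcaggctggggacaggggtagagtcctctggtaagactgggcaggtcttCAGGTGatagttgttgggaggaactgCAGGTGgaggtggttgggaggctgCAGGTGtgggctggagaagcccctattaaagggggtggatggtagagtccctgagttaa
Oosp1 (chr19:11691052-11691301, minus strand): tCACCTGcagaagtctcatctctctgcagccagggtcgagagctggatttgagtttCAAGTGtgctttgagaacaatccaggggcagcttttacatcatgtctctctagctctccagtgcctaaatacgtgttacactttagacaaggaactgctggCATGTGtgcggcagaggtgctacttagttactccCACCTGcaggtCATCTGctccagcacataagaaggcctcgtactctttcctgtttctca
The Zp3 window holds 3 E-boxes, the Astl window 3 and the Oosp1 window 5. Of these, 1 in Zp3, 3 in Astl and 2 in Oosp1 read CAGGTG on either strand; CAGGTG is itself a case of CANNTG. Across 32851 windows of the same length, 66.2% hold CANNTG and 17.2% hold CAGGTG on either strand. Astl has another annotated start, at the outer end of its gene span, whose window (chr2:127338389-127338638) holds 0 E-boxes. The printed Astl window lies inside that gene span (chr2:127338639-127357651).

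The main contrast of the data was between stages. Of the 7 members tested at both stages, 6 were called from GV to MII at an adjusted p under 0.05 by edgeR's quasi-likelihood test, 5 lower and 1 higher. Zp3, Cd9, Zp2, Izumo1r and Zp1 fell, Oosp1 rose, and Astl was not called over both types. Cd81 passed the filter on low counts through the MII oocytes alone and is given apart. This stands against a background in which most transcripts changed: 7788 of 11375 genes (68.5%) were called, 36.8% lower and 31.7% higher. The share of members called was near that of all genes, so the count alone is no result about them. The median log2 fold change was -2.69 over the 7 members and -0.10 over all genes tested. Libraries of GV and MII oocytes did not overlap for 4 of the 7, against 47.4% of all genes. The contrast was also taken within each type: 56.3% of all genes were called within SN oocytes (31.2% lower, 25.1% higher) and 56.1% within NSN oocytes (30.7% lower, 25.4% higher). Levels are relative to the other transcripts of the same oocyte, and since reverse transcription is primed on poly(A), fewer molecules and shorter tails cannot be told apart. Unless a type is named, the fold changes below are the means over SN and NSN oocytes.

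Zp3 (chr5:135980099-135988624, plus strand; gene coordinates here and below are of GRCm38) fell most. Its level was 3309, 3129 and 3392 CPM (read counts scaled by library size) in the SN GV oocytes and 3502, 4681 and 3354 CPM in the NSN GV oocytes. At MII it was 205, 319.6, 297 and 238 CPM in the SN oocytes and 340.2, 293 and 65.9 CPM in the NSN oocytes. Every MII oocyte lay below every GV oocyte, and the third NSN-MII oocyte was the lowest. The fall was 14.3-fold (log2 fold change -3.84 ± 0.29 SE, adjusted p = 7.2e-09 in the edgeR fit).

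Zp2 (chr7:120126772-120145291, minus strand), which carries the sperm binding region, fell in a similar way. The SN GV oocytes had 2612, 2538 and 2814 CPM and the NSN GV oocytes 3407, 3507 and 2818 CPM. SN-MII oocytes had 265, 333, 264 and 198 CPM, and NSN-MII oocytes 552, 395 and 104 CPM. No MII value reached the GV range. Zp2 was 9.63-fold lower at MII (log2 fold change -3.27 ± 0.28 SE, adjusted p = 3.01e-08).

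Zp1 (chr19:10914287-10920632, minus strand), the cross-linking subunit, fell less and less evenly. It stood at 983, 1162 and 1246 CPM in SN GV oocytes and at 1382, 1605 and 1268 CPM in NSN GV oocytes. SN-MII oocytes had 337, 447, 422 and 211 CPM, all below the GV range. NSN-MII oocytes had 1437, 1088 and 163 CPM: the first and the second lay within the GV range and the third was the lowest of all 13. Over both types Zp1 was 2.25-fold lower at MII (log2 fold change -1.17 ± 0.33 SE, adjusted p = 0.00474), with overlapping stages. Without the third NSN-MII library the log2 fold change was -0.94 ± 0.17 SE (adjusted p = 0.000205). Within types the fall was called in SN oocytes (log2 fold change -1.67 ± 0.45 SE, adjusted p = 0.00447) and not in NSN oocytes (-0.66 ± 0.48 SE, adjusted p = 0.253; -0.19 without the third NSN-MII library).

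The coat transcripts changed in proportion as well as in sum. Within each library the 3 genes were set as shares of their summed FPKM, a measure that does not depend on depth and was described without a test. Zp1 made up 11.6 to 14.2% of the sum in the 6 GV oocytes. It made up 36.7, 36.1, 38.4 and 26.9% in SN-MII oocytes and 58.8, 57.9 and 44.3% in NSN-MII oocytes, and these 3 ranges did not overlap. The third NSN-MII oocyte, lowest in all 3 transcripts, still lay above every SN-MII oocyte in its Zp1 share. Zp3 went the other way, from 55.6 to 60.9% at GV to 34.9 to 47.1% in SN-MII and 21.6 to 27.97% in NSN-MII oocytes. Zp2 held 25.4 to 30.2% at GV and 18.1 to 28.4% at MII, with overlap. The ratio of Zp3 to Zp1 in FPKM was 3.93 to 5.23 at GV, 0.951 to 1.75 in SN-MII oocytes and 0.368 to 0.631 in NSN-MII oocytes.

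**Figure D2:**
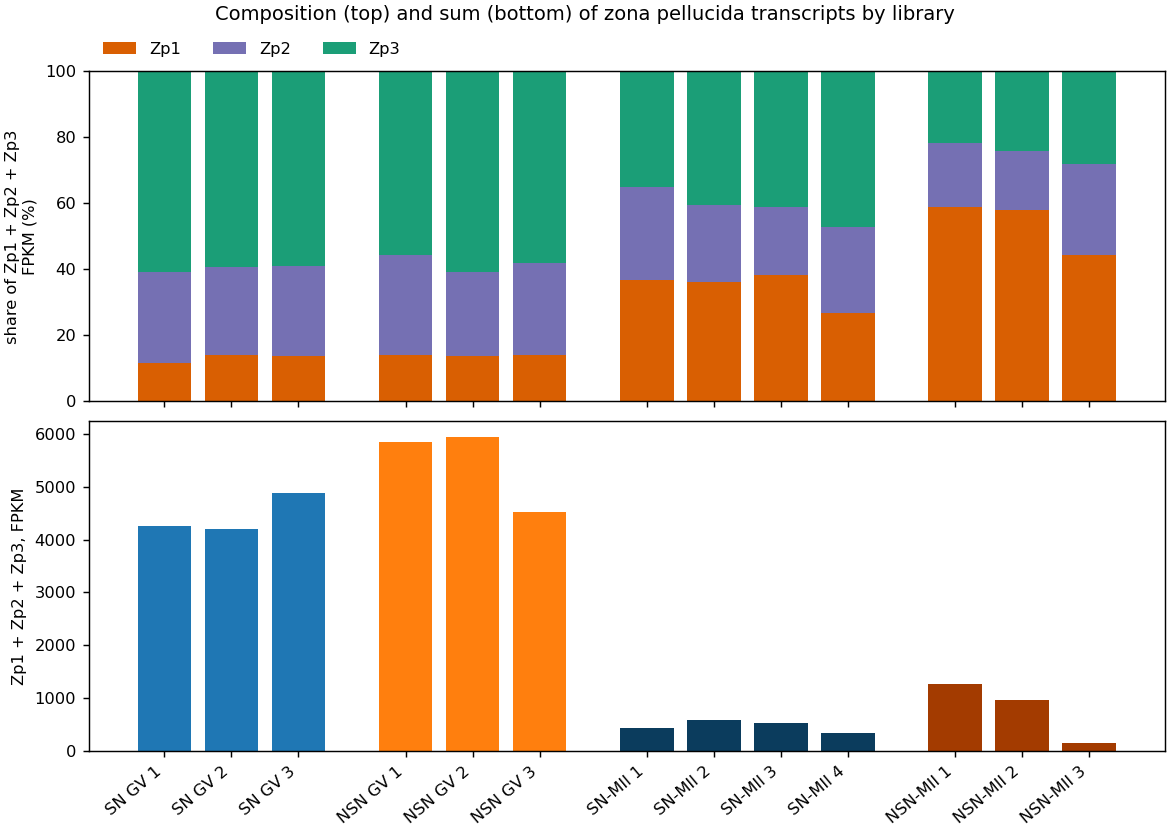
Bars are single-oocyte libraries in the 4 groups; the upper panel splits the summed FPKM of Zp1, Zp2 and Zp3 into shares in percent and the lower panel gives that sum in FPKM. The sum was 4192 to 5937 FPKM at GV and 153 to 1273 FPKM at MII, and the Zp1 share is smallest in the GV bars and largest in the NSN-MII bars.

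Of the genes for egg membrane proteins, Izumo1r (chr9:14885814-14903949, minus strand) and Cd9 (chr6:125460266-125494791, minus strand) both fell. Izumo1r, the gene for JUNO, stood at 337, 303 and 302 CPM in SN GV oocytes and at 217, 444 and 287 CPM in NSN GV oocytes. It stood at 44.7, 47.9, 50.9 and 27.1 CPM in SN-MII and at 65.5, 55.4 and 47.1 CPM in NSN-MII oocytes, all far below GV. The fall was 6.44-fold (log2 fold change -2.69 ± 0.19 SE, adjusted p = 3.36e-09 in the same fit), with the smallest SE of the 4 large falls.

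Cd9, the fusion tetraspanin, varied among GV oocytes with a coefficient of variation of 37.8% in CPM. It had 127, 97.0 and 204 CPM in SN GV oocytes and 186, 216 and 82.5 CPM in NSN GV oocytes. SN-MII oocytes had 21.6, 13.9, 26.2 and 26.7 CPM, and NSN-MII oocytes 10.8, 12.7 and 5.07 CPM. Stages were separate, with a 10.4-fold fall (log2 fold change -3.38 ± 0.29 SE, adjusted p = 2.61e-08). The estimated counts of Cd9 were not whole numbers in 12 of 13 libraries. The counting tool can share out reads that fit more than 1 gene, but the cause was not tested. Gm28809 and Gm26728 overlap Cd9 on the other strand, and as no strand-specific step is named their reads cannot be told apart from those of Cd9.

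Cd81 (chr7:143052739-143067934, plus strand) was low throughout and moved opposite to its relative. Its counts gave 0.765, 0.946 and 1.08 CPM in SN GV oocytes and 0.526, 0.874 and 0 CPM in NSN GV oocytes. SN-MII oocytes had 3.98, 5.52, 5.52 and 2.999 CPM, and NSN-MII oocytes 4.88, 4.21 and 1.52 CPM. Every MII oocyte lay above every GV oocyte in CPM, and the fitted log2 fold change was 2.57 ± 0.58 SE (adjusted p = 0.000812). Because Cd81 entered the test only through the stage where it is high, this value is a description. Its largest deposited count was 43, and limma on log2(FPKM + 1) gave a log2 fold change of 1.06. In FPKM the stages overlapped, since the second NSN GV oocyte had 1.77 FPKM and the third NSN-MII oocyte 0.83 FPKM. R74862 overlaps Cd81 on the other strand. As a share of the FPKM of both tetraspanins, Cd9 made up 99.0 to 100% at GV and 74.4 to 91.6% at MII.

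Oosp1 (chr19:11667460-11691150, minus strand), the secreted oocyte protein, rose modestly from a high level. It had 1722, 1539 and 1557 CPM in SN GV oocytes and 1087, 1636 and 1370.1 CPM in NSN GV oocytes. SN-MII oocytes had 2863, 2006, 2324 and 2482 CPM and NSN-MII oocytes 1701, 1876 and 2952 CPM. The stages overlapped, since the first NSN-MII oocyte lay below the highest GV oocyte. Oosp1 was 1.55-fold higher at MII (log2 fold change 0.63 ± 0.16 SE, adjusted p = 0.00183). Of its relatives Oosp2 fell (log2 fold change -1.67 ± 0.24 SE, adjusted p = 1.34e-05) and Oosp3 rose (0.78 ± 0.20 SE, adjusted p = 0.00214).

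Astl (chr2:127338639-127357651, plus strand), the protease that cleaves ZP2 after fertilisation, was not called when both types were averaged. Its level was 509, 587 and 674 CPM in SN GV oocytes and 957, 861 and 637 CPM in NSN GV oocytes. At MII it was 520.1, 1140.2, 1156 and 878 CPM in SN oocytes and 547, 539 and 355 CPM in NSN oocytes. Every NSN-MII oocyte lay below every NSN GV oocyte, whereas 3 of 4 SN-MII oocytes lay above every SN GV oocyte. Averaged over both types the log2 fold change was -0.06 ± 0.19 SE (adjusted p = 0.785). Within SN oocytes it rose (log2 fold change 0.65 ± 0.26 SE, adjusted p = 0.0439) and within NSN oocytes it fell (-0.77 ± 0.28 SE, adjusted p = 0.0260). The SN call was lost in 6 of 7 fits with an SN library left out, all but the one without the first SN-MII library, and the 7 values ran from 0.52 to 0.84. The NSN call was lost in 3 of 6 fits with an NSN library left out, those without the first NSN GV, the second NSN GV and the third NSN-MII library, and the 6 values ran from -0.92 to -0.62.

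**Figure D3:**
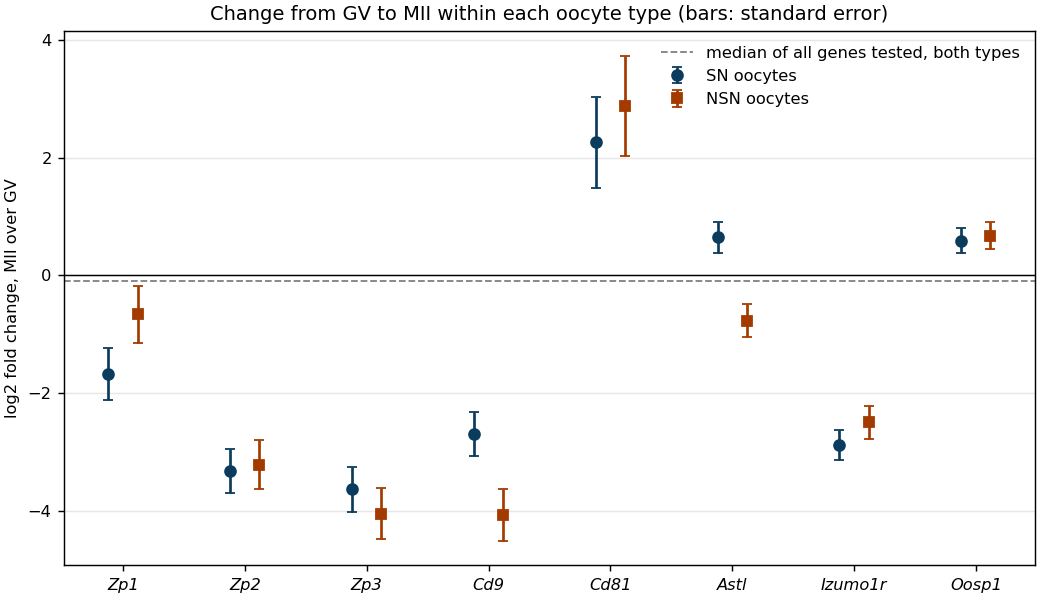
Points give the log2 fold change of MII over GV oocytes for each gene within SN (circles) and NSN oocytes (squares), bars give 1 standard error, and the dashed line is the median of all genes tested, -0.10. Zp2, Zp3 and Izumo1r lie at similar depth in both types, Astl lies on opposite sides of 0, and Cd9 is at -2.69 in SN and -4.06 in NSN oocytes.

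Whether the difference between types changed with stage was tested as an interaction. None of the 8 members was called, nor were any but 2 of 11375 genes (0.0176%); at an unadjusted p under 0.05 there were 603 genes. The member nearest to a call was Astl, for which the NSN to SN difference moved by -1.41 ± 0.38 SE on the log2 scale from GV to MII (adjusted p = 0.387). Cd9 moved by -1.37 ± 0.54 SE (adjusted p = 0.808) and Zp1 by 1.01 ± 0.65 SE (adjusted p = 0.9996). The opposite changes of Astl within types were thus not shown to differ by this test.

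At GV no member was called between NSN and SN oocytes. Zp1, Zp2, Zp3, Astl, Cd9 and Izumo1r had NSN means above the SN means and Oosp1 a mean below, with log2 differences between -0.23 and 0.50. None of the 7 tested was called, and neither was any of 10839 genes (0%) by edgeR's quasi-likelihood test; 183 had an unadjusted p under 0.05, Astl among them (log2 fold change 0.50 ± 0.21 SE, unadjusted p = 0.0454, adjusted p = 0.99997). In CPM, Zp1 and Zp2 were higher in all 3 NSN than in all 3 SN oocytes, as 2 of 7 members against 6.03% of all genes. The margin was narrow for Zp2, with the lowest NSN oocyte at 2818 CPM and the highest SN oocyte at 2814 CPM. In FPKM the types overlapped for both genes. The lowest NSN and highest SN oocytes had 642 and 674 FPKM of Zp1, and 1252 and 1331 FPKM of Zp2. The log2 differences of Zp1 and Zp2 were 0.34 ± 0.16 SE and 0.31 ± 0.15 SE, and neither passed the threshold. Cd81 was left out by the filter.

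At MII the largest differences between types were those of Zp1, Cd9 and Astl, and none was called. edgeR called 28 of 10028 genes (0.279%) and 0 of 8 members. Zp1 had the largest difference, 896 ± 658 CPM (SD, n = 3) in NSN-MII against 354 ± 106 CPM (n = 4) in SN-MII oocytes (log2 fold change 1.35 ± 0.56 SE, adjusted p = 0.468). Its first and second NSN-MII oocytes lay above all SN-MII oocytes and the third lay below them. Cd9 was the only member whose libraries did not overlap, against 10.2% of all genes, with every NSN-MII oocyte below every SN-MII oocyte. Its means were 9.55 ± 3.997 CPM and 22.1 ± 5.94 CPM (log2 fold change -1.19 ± 0.38 SE, adjusted p = 0.280). Astl stood at 480.3 ± 108 CPM in NSN-MII and 924 ± 298 CPM in SN-MII oocytes (log2 fold change -0.94 ± 0.27 SE, adjusted p = 0.218), with 1 SN-MII oocyte inside the NSN-MII range. A looser criterion asked for a 1.5-fold change and an unadjusted p under 0.05, and Zp1, Cd9 and Astl passed it, 3 of 8 members against 7.13% of genes. DESeq2 called Astl (adjusted p = 0.0366) among 218 genes (2.17%).

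These values rested in part on the third NSN-MII library. Without it edgeR called 240 of 10420 genes (2.3%), among them Zp1 (log2 fold change 1.84 ± 0.26 SE, adjusted p = 0.0117) and Zp2 (0.85 ± 0.19 SE, adjusted p = 0.0378), both higher in NSN-MII oocytes. Cd9 stood at -0.89 ± 0.33 SE and Astl at -0.76 ± 0.29 SE, neither called. Zp3 changed sign, from -0.17 to 0.27, and Cd81 from -0.33 to 0.02. In that library Zp1, Zp2, Zp3, Cd9, Cd81 and Astl were each at their lowest of the 7 MII oocytes and Oosp1 was at its highest. The part of library quality in these values was not tested.

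**Figure D4:**
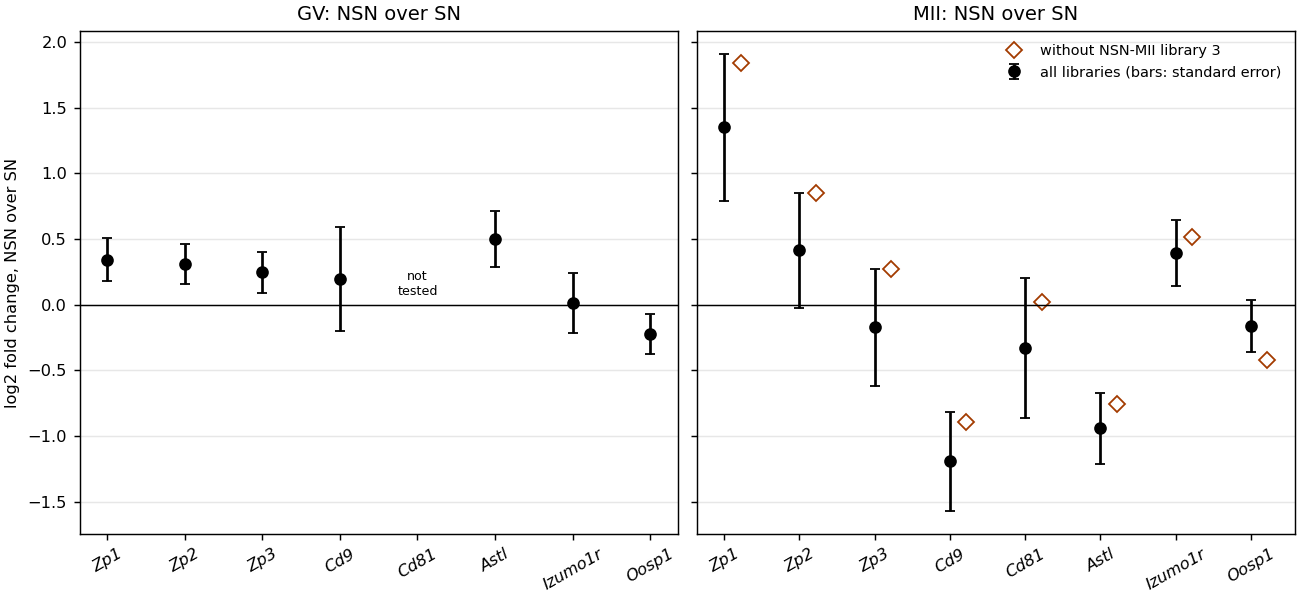
Filled points give the log2 fold change of NSN over SN oocytes with 1 standard error at GV (left) and MII (right); open diamonds on the right leave out the third NSN-MII library. Zp1 moves from 1.35 to 1.84 and Zp2 from 0.41 to 0.85 without that library, while Cd9 and Astl stay below 0.

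Some of the members also varied together from oocyte to oocyte inside the groups. After the mean of each of the 4 groups was subtracted, log2(CPM + 1) of Zp1 and Zp2 ran together over the 13 libraries (r = 0.983), as did Zp1 and Zp3 (r = 0.954). Cd81 followed Zp1 (r = 0.878), whereas Oosp1 ran against it (r = -0.734). With the 2 libraries farthest from the median left out, these values were 0.925, 0.781, 0.800 and -0.349, the relation to Oosp1 weakening most. The group means subtracted still included those 2 libraries, so the remaining relations are not shown to be free of them. Cd9 and Izumo1r had little in common (r = 0.105). Cd81 had 0 to 9 reads in each GV oocyte, so its deviations there lie near the detection limit. The points share library depth and scaling, and the values are a description.

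The genes most like each member by the same measure were none of the other members. They were Nucb1 (r = 0.991) and Sdf4 (r = 0.988) for Zp1, Uqcr11 (r = 0.987) and Ubl4a (r = 0.985) for Zp2, and Pebp1 (r = 0.989) and Ruvbl2 (r = 0.988) for Zp3. Cd9 was most like Nudt21 (r = 0.955) and Sike1 (r = 0.930), and Cd81 most like Sergef (r = 0.965) and Psmb5 (r = 0.959). Izumo1r was most like Bloc1s1 (r = 0.948) and Cycs (r = 0.930). The weakest best match belonged to Astl, with Wnt7a (r = 0.904) and Daglb (r = 0.904), and Oosp1 was most like Rgs17 (r = 0.961) and Lypla1 (r = 0.945). With the 2 libraries farthest from the member's median left out, these values ran from 0.733 (Astl with Daglb) to 0.960 (Zp1 with Nucb1). Each gene was picked as the highest of all genes compared, so the values are a description.

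A list of 11 oocyte regulators was examined next, 10 of which were tested. The list is not limited to genes that switch on the zona genes, and holds secreted growth factors as well. At MII, 4 of the 10 were called higher, 3 lower and 3 were not called, with a median log2 fold change of 0.52. Over all genes 31.7% were called higher and 36.8% lower, with a median of -0.10, and the counts of the lists below are to be read against these shares. Figla, the E-box factor of the zona promoters, fell by 4.25 on the log2 scale (SE 0.30, adjusted p = 2.64e-09), further than any member. Nobox, a homeobox factor of growing oocytes, changed by -2.39 ± 0.23 SE. Sohlh2, a helix-loop-helix factor of early oocytes, rose by 2.01 ± 0.41 SE and Foxo3, which holds primordial follicles at rest, by 1.09 ± 0.20 SE.

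Of 16 genes for translocation, glycosylation, folding and cleavage of secreted proteins, 7 rose, 6 fell and 3 were not called. Furin, a convertase of the type that trims zona precursors, rose by 1.36 ± 0.19 SE and the oligosaccharyltransferase subunit Stt3a by 1.12 ± 0.14 SE. The chaperone gene Calr stood at -2.44 ± 0.17 SE and Rpn2, another subunit of that enzyme, at -2.44 ± 0.15 SE. Of 15 genes that build or attach the GPI anchor of proteins such as JUNO, 6 rose, 8 fell and 1 was not called. Piga, which acts in its initial step, rose by 1.76 ± 0.20 SE and Pigt, of the transamidase, by 1.70 ± 0.51 SE. Pigo and Pigl, both enzymes of the pathway, had -2.65 ± 0.29 SE and -2.07 ± 0.51 SE.

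Of 12 membrane partners of CD9 and integrins, 11 were tested, 6 rose, 1 fell and 4 were not called, with a median log2 fold change of 0.95 against -0.10 over all genes. Itga6, an integrin alpha subunit, rose by 1.67 ± 0.21 SE and the tetraspanin gene Tspan5 by 1.44 ± 0.21 SE. The gene that fell was Igsf8 (-2.43 ± 0.49 SE), whose protein binds CD9 directly; it passed the filter only through the GV oocytes. Of 15 genes for the transport and fusion of cortical granules, which carry ovastacin, 14 were tested. Of these, 2 rose, 4 fell and 8 were not called, a smaller share called than the 68.5% of all genes. Stx4a, 1 of the 4 that fell, passed the filter only through the GV oocytes, so its fall is a description. Snap23 (0.96 ± 0.13 SE) and Vamp3 (0.88 ± 0.17 SE) rose, and Vamp1 (-3.76 ± 0.53 SE) and Napa (-3.57 ± 0.23 SE), all parts of the membrane fusion machinery, fell. In these 5 lists no gene was called between NSN and SN oocytes at either stage, or in the interaction. Over all genes 0% were called at GV, 0.279% at MII and 0.0176% in the interaction, so the absence of calls is no result about these lists.

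**Figure D5:**
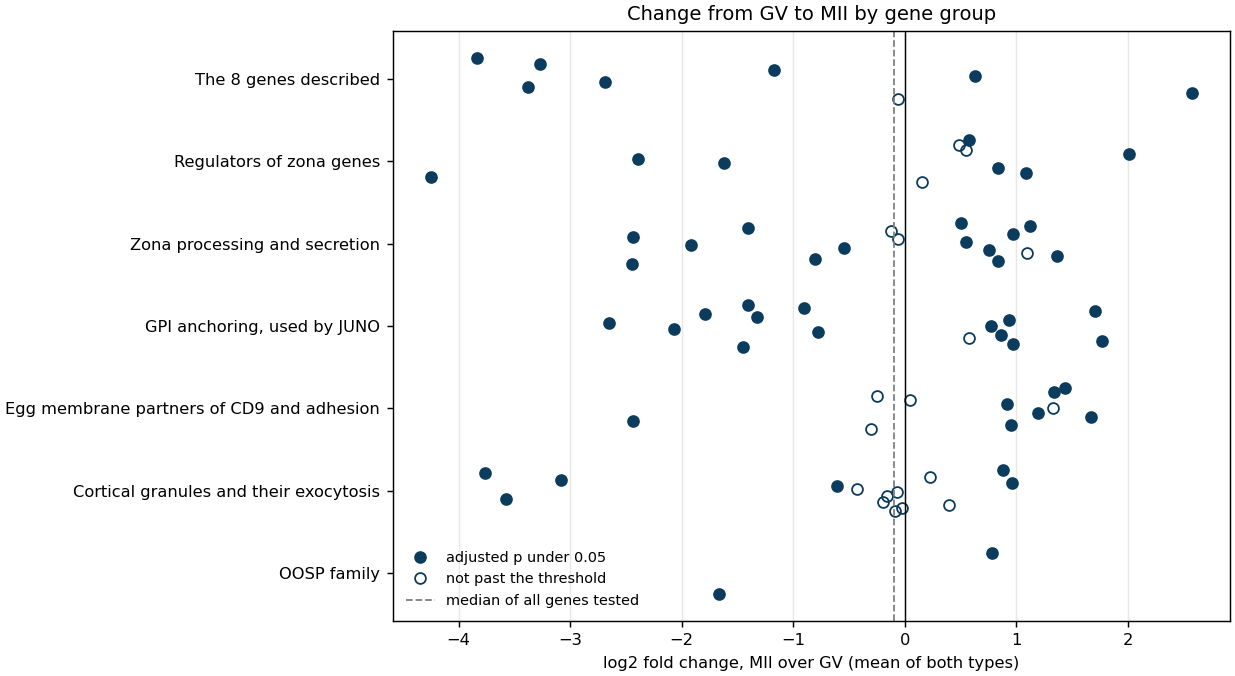
Each point is 1 gene, placed by its log2 fold change of MII over GV on the horizontal axis and by its group on the vertical axis; filled points passed an adjusted p under 0.05 and the dashed line is the median of all genes tested. The 8 genes run from -3.84 to 2.57, and the partners of CD9 have 6 filled points on the right and 1 on the left.

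The genes of the sperm side were listed for comparison. Of 12 sperm counterparts, Izumo1, Spaca6, Tmem95, Acr and Spaca4 were at 0 in all 13 libraries, and the list summed to 2.36 to 7.25 FPKM. Of these, 3 were tested between stages and 1 was called: Zpbp2, a zona binding protein gene, fell by 3.28 on the log2 scale (SE 0.57, adjusted p = 7.12e-05), having passed the filter only through the GV oocytes.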

How the data were processed

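Single-oocyte libraries of 3 SN GV, 3 NSN GV, 4 SN-MII and 3 NSN-MII oocytes were made with SMART-seq2. The authors trimmed the reads with Trim Galore 0.4.4, mapped them to mm10 with Bowtie2 2.3.5 and quantified genes with RSEM 1.2.28. The estimated counts were deposited by the authors in 1 table per stage, not normalized. The authors deposited FPKM values in 1 table of 49686 genes. The submitters' processing notes also name DESeq2 1.20.0. No molecular identifiers are named, so amplification adds to the counting error. No value column was left out, and 0 pairs of libraries were identical.

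Counts were rounded to whole numbers, filtered with filterByExpr, scaled by TMM and tested with edgeR 4.0.16 (R 4.3.3; robust quasi-likelihood, Benjamini-Hochberg adjustment over all genes tested, threshold 0.05). NSN and SN oocytes were compared within stages. The stage contrast, weighing both types equally, and the interaction used all 13 libraries, and the stage contrast was also taken within each type from that fit. CPM used 1 TMM scaling over all libraries. The edgeR steps were also run on simulated counts drawn with the spread fitted to these data. No library was made to stand apart in them, so that run does not bear on the third NSN-MII library. DESeq2 1.42.0 and limma 3.58.1 on log2(FPKM + 1), for genes of mean FPKM of at least 1, served as alternatives. Coordinates are from GENCODE M21 (GRCm38), where 18887 of 18939 symbols were found; promoters are from RefSeq.

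The members and the gene lists were chosen with earlier results of these data known. Named were the 8 members, the 2 called genes that rose most and the 2 that fell most in each list at MII, any gene of a list called between types, and the 2 genes most like each member. Cyp19a1, Nr5a2, Stx4a and the sperm and marker genes at 0 were named after their values were seen.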

Additional observations from a re-analysis of the deposited data

How the results depend on the processing

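The calls of Zp1, Zp2, Zp3, Cd9, Izumo1r and Oosp1 between GV and MII, and their directions, held in all 13 fits with a library left out and in the 8 other alternatives, left-out libraries moving Zp1 between -1.44 and -0.94, Zp3 between -4.04 and -3.63 and Oosp1 between 0.47 and 0.71 (log2). Cd81 stayed positive, at 1.06 by limma with a pseudocount of 1 and at 2.298 (without NSN GV 3) to 2.94 (without NSN GV 2) with a library left out. Astl, never called over both types, ranged from -0.24 to 0.038 (-0.14 to 0.038 with a library left out) and turned positive without NSN GV 1 (0.0034), SN-MII 1 (0.038) or NSN-MII 3 (0.0069). Alternatives within types were run for Zp1 and Astl only and chosen after seeing the data: Zp1 was called within SN oocytes in all of them and within NSN oocytes in none. The call of Astl was lost in 6 of the 8 alternatives that keep all libraries within SN oocytes (0.44 to 0.61) and in 2 of 8 within NSN oocytes (-0.91 and -0.76).

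Between types at GV, 162 genes met the unadjusted criterion, against 0 called. Left-out libraries moved Cd9 between -0.042 and 0.58 (-0.037 without NSN GV 2) and Izumo1r between -0.28 and 0.18 (-0.034 without SN GV 2). Limma gave Izumo1r -0.0036, with or without the filter, and -0.0037 with a pseudocount of 0.1. At MII, 28 genes became 715 by the unadjusted criterion, 218 by DESeq2, 57 with no filter, 9 by limma (6 with a pseudocount of 0.1, 3 with no filter), 74 with all libraries in 1 fit, and 3 to 240 with a library left out. Astl was called by DESeq2 (-0.94). Without NSN-MII 3, Zp1 (1.84) and Zp2 (0.85) were called and Zp3 (0.27) and Cd81 (0.021) changed sign; without NSN-MII 1, Zp2 was at -0.077, Zp3 at -0.55 and Cd81 at -0.63.

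For the interaction, 2 genes became 596, 46 and 6 by the unadjusted criterion, DESeq2 and no filter, 1 by limma with no filter, and 0 to 12 with a library left out. Zp2 turned to -0.20 by limma under its 3 settings and ranged from -0.39 to 0.54 with a library left out (-0.0010 without SN-MII 4). Cd81 turned to -0.15 by limma, with or without the filter. Oosp1 ranged from -0.20 without NSN-MII 3 to 0.23 (-0.055 without NSN GV 1), and Zp3 from -0.80 to 0.018 without NSN-MII 3. The cause of these moves was not tested.

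The sources do not say whether oocytes with the same replicate number belong together, and the numbers were not treated as pairs. The correlation of same-numbered deviations was -0.458 to -0.206 at GV and -0.119 to 0.0966 at MII. With 3 or 4 oocytes per group these values cannot decide whether the oocytes were paired. With the replicate number as a block, 3 genes were called at MII, 0 in the interaction, 0 at GV and 7385 between stages, and the block turned Izumo1r at GV to -0.035 and the interaction of Zp2 to -0.28. The non-robust fit was chosen after seeing the data. edgeR's biological coefficient of variation was 0.352 in the GV fit and 0.344 in the MII fit, which with 3 or 4 oocytes per group leaves small differences undetectable.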
